A study of Mus musculus with 2 samples.

Results

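The oncostatin M receptor and Stat3 signaling pathway was examined as 8 genes in chromatin of the mouse brain: the receptor genes Osmr, Il6st, Lifr and Il6ra, the kinase genes Jak1 and Jak2, the transcription factor gene Stat3 and the inhibitor gene Socs3. They were chosen by name, with earlier results of these data known, as 8 of the 21911 protein-coding genes annotated. Counts of the 8 genes set beside shares of all genes below are therefore descriptions and no independent evidence. Accessibility was counted over each gene body plus 2 kb upstream. Single-cell ATAC-seq, in which the Tn5 transposase cuts open DNA in single nuclei, had been run on 2 libraries from WT C57BL/6J young adult male mice 48 h after surgery, one from sham-operated brains and one from the ipsilateral hemisphere of mice whose middle cerebral artery had been occluded and reperfused (MCAO/R, called stroke below). Each library pooled 4 brains before nuclei were isolated, so each condition had 1 library and single animals could not be told apart. Sham tissue came from brains and stroke tissue from the injured hemisphere, in both cases with the cerebellum and olfactory bulbs removed, so the sampled tissue differed between the conditions as well as the injury.

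Cytokines of the interleukin-6 family, among them oncostatin M, act through receptors that share the signal-transducing chain gp130, the product of Il6st. Oncostatin M binds gp130 paired with the receptor encoded by Osmr, or with the leukemia inhibitory factor receptor encoded by Lifr, while interleukin-6 first binds the chain encoded by Il6ra. The bound receptors activate Janus kinases such as Jak1 and Jak2, these phosphorylate Stat3, and Stat3 induces Socs3, which feeds back on the receptor complex. In the injured brain this pathway is best known for its part in reactive astrocytes.

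The libraries held 76959104 fragments in sham and 96465679 in stroke. Of the barcodes called as cells, 6817 of 6979 in sham and 5054 of 8740 in stroke had more than 20% of their fragments in peaks and were kept, with a median of 10353 and 9898 fragments, and 42 barcodes occurred in both. Nuclei were assigned to 7 classes by marker genes, and 69.7% of sham and 69.8% of stroke nuclei met no gate. A second set of marker genes, which assigned no nucleus, was compared with all kept nuclei of both libraries. Their geometric mean enrichment was 2.55-fold in the astrocyte gate, 3.45-fold in the myeloid gate, 3.50-fold in the oligodendrocyte gate, 1.75-fold in the vascular gate and 1.66-fold in the glutamatergic neuron gate, and these are called astrocyte-like and so on. It was 1.21-fold in the OPC (oligodendrocyte progenitor cell) gate and 1.20-fold in the GABAergic neuron gate, under the 1.5-fold asked for a name, so these are called by their gate. Several scorings of the gate were tried with these enrichments in view, and the 1.5-fold limit was set after seeing them, so they describe the classes chosen and are no independent check of their names. The OPC gate was enriched more for the second set of oligodendrocyte markers, 1.27-fold, than for its own. In the astrocyte gate the second set of another class reached 1.67-fold, also above 1.5-fold, and the OPC set summed to 211 and 272 CPM in sham and stroke, more than its 179 and 173 in the OPC gate. Within each library the enrichment was 1.74-fold in sham and 3.55-fold in stroke for the myeloid gate, 1.28-fold and 0.955-fold for the GABAergic gate, and 1.23-fold and 1.18-fold for the OPC gate. The part of these gaps in the ratios given below for these gates was not tested. The myeloid gate does not tell microglia, macrophages and granulocytes apart, and the study reports larger shares of all of them after stroke. The part of a changed mixture of these cells in the myeloid-like ratios below was not tested.

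Stretches of DNA on which the findings turn are shown here, from RefSeq and its genome build GRCm38.p6, which carries the mm10 coordinates of the files. Capitals mark matches to the STAT letters TTCNNNGAA or the AP-1 letters TGAGTCA, each searched on both strands. The Osmr and Socs3 stretches are the 250 bases before the RefSeq start, on the minus strand, at chr15:6874314-6874563 and chr11:117969367-117969616. GENCODE M21 draws Osmr and Socs3 transcripts that begin farther upstream, so these bases overlap exons there. The other stretches are the central 300 bases, on the plus strand, of a window between genes past the end of Il6ra at chr3:89861101-89861400 and of one upstream of Stat3 at chr11:100947101-100947400, each the noncoding window of its locus with the most stroke fragments among those at least 2-fold higher in stroke.
Osmr before the start: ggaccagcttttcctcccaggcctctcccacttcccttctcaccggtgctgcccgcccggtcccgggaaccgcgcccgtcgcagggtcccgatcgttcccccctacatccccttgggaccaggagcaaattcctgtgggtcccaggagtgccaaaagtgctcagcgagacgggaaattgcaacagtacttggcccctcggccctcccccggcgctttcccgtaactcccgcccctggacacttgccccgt
Socs3 before the start: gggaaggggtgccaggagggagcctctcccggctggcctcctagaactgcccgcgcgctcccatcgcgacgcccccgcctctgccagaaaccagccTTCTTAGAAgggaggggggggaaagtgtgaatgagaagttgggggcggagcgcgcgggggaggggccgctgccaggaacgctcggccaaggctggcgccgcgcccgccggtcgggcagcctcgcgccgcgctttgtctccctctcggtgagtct
Il6ra past the end: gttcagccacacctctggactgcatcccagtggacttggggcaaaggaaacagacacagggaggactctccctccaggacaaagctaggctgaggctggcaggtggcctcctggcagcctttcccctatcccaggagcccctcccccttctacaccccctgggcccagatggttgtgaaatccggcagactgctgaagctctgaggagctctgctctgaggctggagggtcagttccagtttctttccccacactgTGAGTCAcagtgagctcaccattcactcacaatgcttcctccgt
Stat3 upstream: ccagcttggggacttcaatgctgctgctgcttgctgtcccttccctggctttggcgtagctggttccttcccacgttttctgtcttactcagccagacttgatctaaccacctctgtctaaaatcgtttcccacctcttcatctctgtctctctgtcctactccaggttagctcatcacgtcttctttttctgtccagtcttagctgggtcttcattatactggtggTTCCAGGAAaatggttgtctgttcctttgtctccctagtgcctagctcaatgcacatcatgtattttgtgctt
The Socs3 stretch and the Stat3 window each held 1 STAT match, the Il6ra window held 1 AP-1 match, and the Osmr stretch held neither. Of 32851 RefSeq promoters of 250 bases, 7.02% held the STAT letters and 4.46% the AP-1 letters. Of the central 300 bases of 32576 windows open in astrocyte-like nuclei, the shares were 7.83% and 5.54%. The Il6ra and Stat3 windows were picked among those at least 2-fold higher in stroke. Of the 2515 open windows of that kind, 13.6% held the STAT letters and 24.7% the AP-1 letters.

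Osmr, whose product pairs with gp130 to bind oncostatin M and with the Il31ra product to bind interleukin-31, had the highest ratio of the 8 genes in astrocyte-like nuclei. These numbered 325 in sham and 445 in stroke, which was 4.77% and 8.80% of the kept nuclei. Without the filter on fragments in peaks they numbered 322 of 6979 called barcodes in sham and 451 of 8740 in stroke. The gap between the 2 shares thus depends on that filter, which removed more stroke than sham barcodes. Osmr (ENSMUSG00000022146.12, chr15:6813577-6874969, minus strand) had 48 fragments in sham and 199 in stroke, or 14.9 (95% Poisson interval 10.96 to 19.7) and 48.1 (41.6 to 55.3) CPM (the counts-per-million unit, over all fragments of the class and library). The intervals do not overlap, and the ratio of stroke to sham was 3.23 (exact 95% interval 2.35 to 4.53), or 1.69 on the log2 scale. All intervals here cover counting error only, since 1 library per condition leaves no replicates and no test between conditions. Those of fragment counts and their ratios take each fragment as independent, so extra spread from several fragments of 1 nucleus is not in them. In the same nuclei the second marker sets summed to 663 CPM in sham and 626 in stroke for astrocytes, 65.99 and 92.6 for vascular cells, 211 and 272 for OPCs, 59.2 and 71.3 for oligodendrocytes and 44.9 and 44.7 for myeloid cells, with no marker at 0, and the part of these levels in the Osmr ratio was not tested. Of 16805 genes with at least 20 fragments over both libraries, 121 had a higher ratio than Osmr. The Osmr fragments came from 31 of 325 sham and 130 of 445 stroke nuclei, with at most 6 and 8 from 1 nucleus. After every nucleus was thinned to 3000 fragments, one was held by 7 of 278 sham nuclei, or 2.52% (Clopper-Pearson 1.02 to 5.12), and by 48 of 406 stroke nuclei, or 11.8% (8.85 to 15.4), with 47 and 39 shallower nuclei left out. The thinned shares in sham and stroke were 2.59% and 8.16% in vascular-like nuclei, 0.840% and 5.91% in myeloid-like nuclei, 2.50% and 5.13% in the OPC gate, 4.09% and 4.93% in glutamatergic-like nuclei and 4.00% and 3.23% in oligodendrocyte-like nuclei. In the GABAergic gate they were 0.880% and 2.06%, from 5 and 4 nuclei and opposite in direction to its CPM, and in oligodendrocyte-like nuclei the direction was also opposite, so no order is read from these shares.

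Among the other receptor genes in astrocyte-like nuclei, Il6ra was higher in stroke, Lifr was slightly higher and Il6st was not. Il6ra (chr3:89864059-89913196), the chain that binds interleukin-6, had 77 and 167 fragments, or 23.9 and 40.4 CPM in sham and stroke, a log2 ratio of 0.76 (0.36 to 1.17). Lifr (chr15:7090614-7197489) had 350 and 518 fragments, or 108 and 125 CPM, a log2 ratio of 0.21 (0.01 to 0.41). Il6st (chr13:112464070-112510086), the chain common to the family, had 176 and 192 fragments, or 54.5 and 46.4 CPM, a log2 ratio of -0.23 (-0.54 to 0.07). A single sham nucleus supplied 30 of the Il6st fragments, and with at most 2 fragments counted per nucleus the log2 ratio was 0.04. Receptors of one pathway thus stood apart in these libraries, with Osmr and Il6ra above sham and Il6st within its counting error of no difference.

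The kinases and Stat3 itself were near the level of sham. Stat3 (chr11:100885098-100939540) had 350 and 456 fragments, or 108 and 110 CPM, a log2 ratio of 0.02 (-0.18 to 0.23). Jak1 (chr4:101152367-101265282) had 108 and 117 CPM, a log2 ratio of 0.11 (-0.10 to 0.31), and 31 of its stroke fragments came from 1 nucleus. Jak2 (chr19:29251828-29313080) had 70.9 and 81.9 CPM, a log2 ratio of 0.21 (-0.04 to 0.46). The intervals of all 3 genes include no difference, and their upper ends leave room for ratios up to that size. The Jak1 ratio changed sign in 2 of the alternative countings.

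Socs3 (chr11:117966079-117970047), whose protein blocks signaling from gp130, had 123 and 312 fragments in astrocyte-like nuclei, or 38.1 (31.7 to 45.5) CPM in sham and 75.4 (67.3 to 84.2) in stroke. The intervals lie apart, and the log2 ratio was 0.98 (0.68 to 1.30), just short of 2-fold. Over the alternative countings the Socs3 log2 ratio ran from 0.79 to 1.26, on both sides of 2-fold, so the count of genes past 2-fold is 1 or 2 of the 8 depending on the counting. As counted here it was 1, Osmr, against 542 of 16805 genes (3.23%) past 2-fold higher in this class, and 4 of the 8 had an interval above a ratio of 1 against 11.6% of genes. The median log2 ratio was 0.21 over the 8 genes and -0.05 over all genes.

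**Figure D1:**
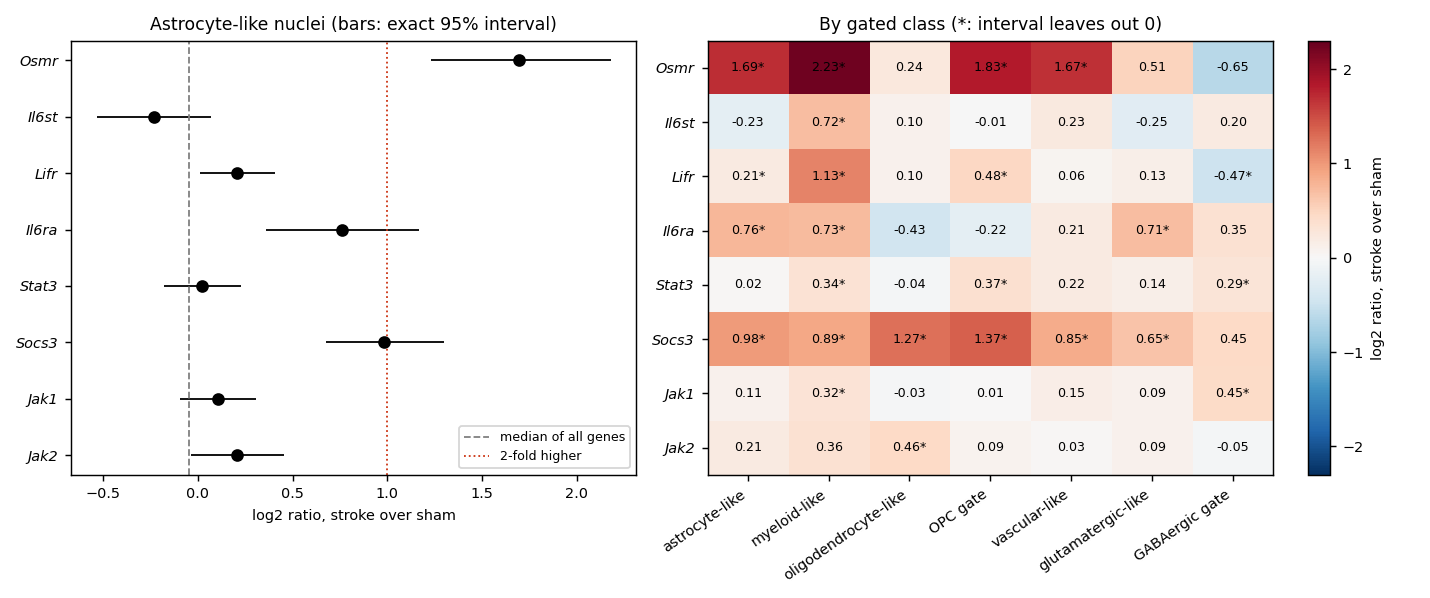
Left, log2 ratio of stroke to sham for each gene in astrocyte-like nuclei, with exact 95% intervals of counting error, 1 library per condition. Right, the same ratio by gated class as colour and number, where * marks an interval that leaves out 0; Osmr reaches 1.69 in astrocyte-like and 2.23 in myeloid-like nuclei, while Stat3 is at 0.02 in astrocyte-like nuclei.

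Levels per length placed the genes differently from their ratios. In astrocyte-like sham nuclei Socs3, a short gene, had 6.38 CPM per kb, Stat3 1.92, Il6st 1.14, Jak2 1.12, Lifr 0.996, Jak1 0.944, Il6ra 0.466 and Osmr 0.235. Osmr was the least open of the 8 genes per kb in sham, and with 0.759 CPM per kb in stroke it remained below the 0.789 of Il6ra. Socs3 was the most open in both libraries, with 12.6 CPM per kb in stroke.

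The start of Osmr separated the libraries more than the gene as a whole. Within 250 bases on either side of its RefSeq start, astrocyte-like nuclei held 5 fragments in sham and 61 in stroke, or 1.55 and 14.7 CPM, a ratio of 9.52 (3.86 to 30.4). These came from 5 of 325 sham nuclei (1.54%, with bounds of 0.501 and 3.55) and 51 of 445 stroke nuclei (11.5%, 8.65 to 14.8), so the gain was spread over many nuclei. The stretch printed for Osmr held 3 of the sham and 33 of the stroke fragments. Outside this start window the gene body and upstream region still differed, with 43 and 138 fragments and a ratio of 2.50 (1.77 to 3.61).

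Counts at the Osmr start were low in the other gated classes. Stroke fragments there numbered 2 in myeloid-like nuclei, 1 in oligodendrocyte-like, 3 in the OPC gate, 3 in vascular-like, and 0 in both glutamatergic-like nuclei and the GABAergic gate. In sham they numbered 4 in glutamatergic-like nuclei and 0 or 1 in each of the other classes. The 3 fragments that a count of 0 allows would be 0.979 CPM in stroke glutamatergic-like and 1.20 CPM in stroke GABAergic gate nuclei, both far under the 14.7 CPM of stroke astrocyte-like nuclei. Nuclei that met no gate held 16 fragments in sham and 41 in stroke, from 13 of 4753 and 39 of 3527 nuclei, or 0.335 and 1.17 CPM. Over the myeloid-like nuclei, 56 of 58 stroke fragments of Osmr lay outside the start window, against 138 of 199 in astrocyte-like nuclei.

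Starts of the other genes moved less in astrocyte-like nuclei. The Socs3 start window had 66 and 152 fragments, or 20.4 and 36.7 CPM, a ratio of 1.80 (1.34 to 2.44). The stretch printed for it, with 1 STAT match, held 36 of the sham and 73 of the stroke fragments. At the Stat3 start, the most open of these windows, the values were 59.8 and 52.0 CPM, a ratio of 0.869 (0.712 to 1.06). The Il6ra start had 16 and 34 fragments, a ratio of 1.66 (0.890 to 3.22), and the intervals of the Il6st, Lifr, Jak1 and Jak2 starts also included 1. Lifr was open at the RefSeq start at its more upstream position (93 and 96 fragments), while its more downstream RefSeq start had 0 fragments in both libraries.

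In the other gated classes, the Socs3 start was also higher in stroke in 4 of 6. Its ratio was 3.29 (1.64 to 7.48) in myeloid-like nuclei, with 9 and 73 fragments, 3.52 (1.45 to 9.74) in oligodendrocyte-like nuclei, with 7 and 22, 3.29 (1.67 to 6.71) in the OPC gate, with 15 and 25, and 2.43 (1.254 to 4.74) in glutamatergic-like nuclei, with 19 and 22. It was 1.98 (0.800 to 5.19) in vascular-like nuclei, and in the GABAergic gate the direction was opposite, with 18 and 2 fragments and a ratio of 0.362 (0.0407 to 1.51), an interval that includes 1. Starts named next are examples picked from many pairs of gene and class, with no share of all starts beside them. Lifr starts in vascular-like nuclei, for instance, held 18 fragments in sham and 5 in stroke. Starts of the kinase genes went both ways. The Jak1 start in glutamatergic-like nuclei was lower in stroke, with 51 and 9 fragments and a ratio of 0.370 (0.160 to 0.759). The Jak2 start in myeloid-like nuclei was higher, with 6 and 39 fragments and a ratio of 2.64 (1.11 to 7.62), as was the Il6ra start there, with 6 and 37 and a ratio of 2.50 (1.05 to 7.25).

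**Figure D2:**
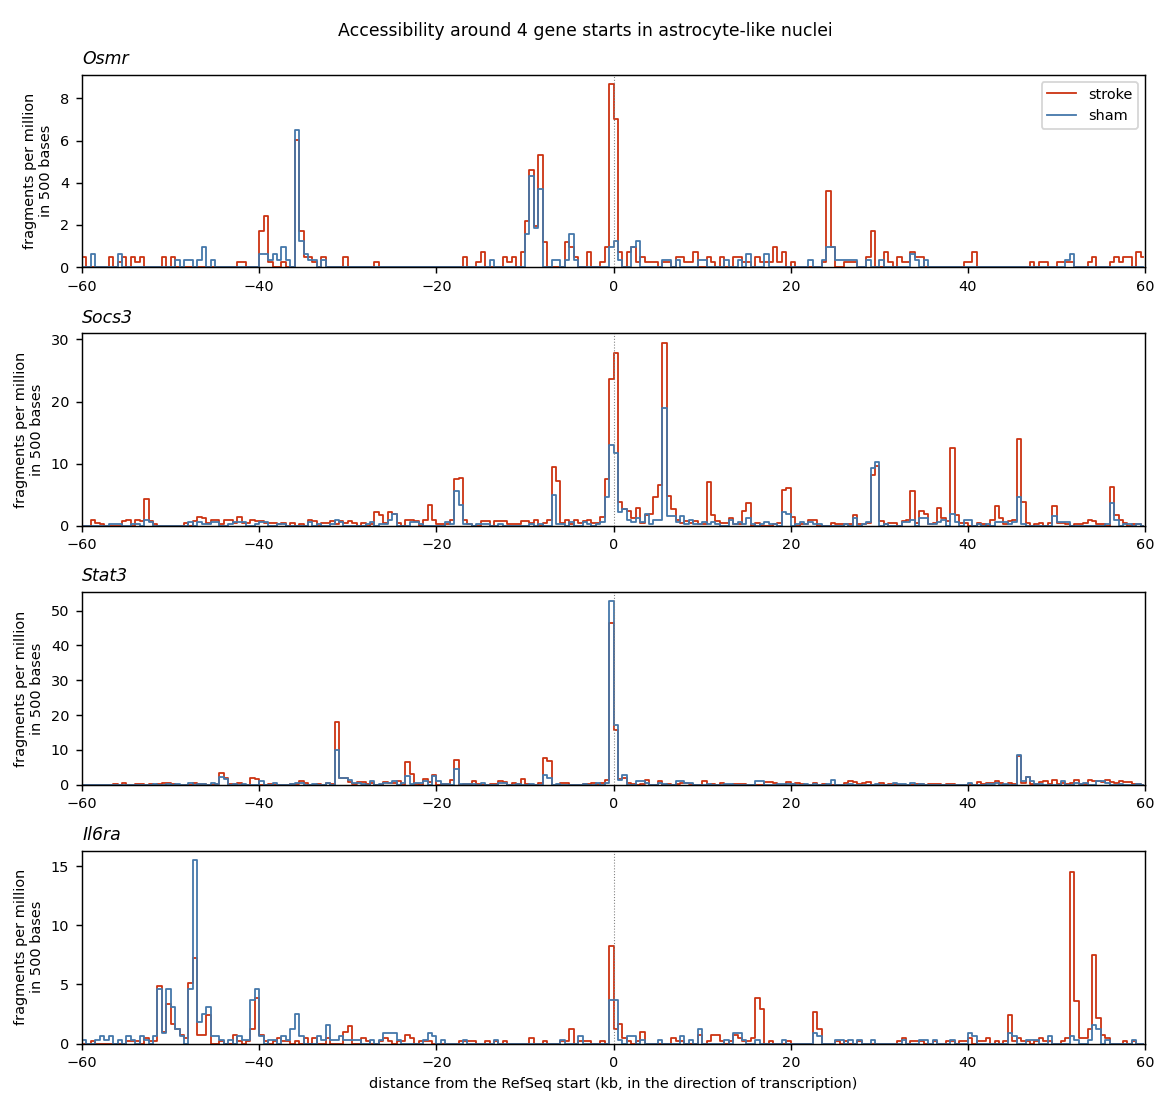
CPM in windows of 500 bases around the RefSeq start (0 kb) of 4 genes in astrocyte-like nuclei of the sham (blue) and stroke (red) libraries, each panel with its own vertical scale and windows laid out from the start. The Osmr start rises above sham, and of the open windows upstream of it the ratio was 1.91 (0.844 to 4.70) at 7.94 kb, 0.997 at 8.94 kb and 0.957 at 35.4 kb, and the Il6ra panel shows the stroke window 51.9 kb after the start.

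Open windows around the genes were then counted on a fixed grid of 500 bases, keeping windows with a mean of at least 4 CPM over both libraries in astrocyte-like nuclei. The loci of the 8 genes with 50 kb on either side held 50 such windows, of which 13 were at least 2-fold higher in stroke and 0 at least 2-fold lower. Over the genome 7.72% of 32576 open windows were at least 2-fold higher and 4.67% at least 2-fold lower. Socs3 had 6 of its 13 windows higher, Il6ra 2 of 5, Stat3 2 of 10, Osmr 1 of 4, Lifr 1 of 6, Jak1 1 of 6, and Il6st and Jak2 0 of 2 and 0 of 4. A window can pass the minimum through the library where it is high, so these counts describe the loci and carry no test.

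Past the end of Il6ra lay the window with the highest ratio. It spans chr3:89861001-89861500, between genes and 2.56 kb past the end of Il6ra. On its far side lies She, 5.225 kb from Il6ra, and to which gene the window belongs was not tested. The window held 3 fragments in sham and 66 in stroke, or 0.929 and 15.9 CPM, a ratio of 17.2 (5.62 to 85.3). The sham fragments came from 3 and the stroke fragments from 55 astrocyte-like nuclei. This is the window printed with an AP-1 match, and the 300 bases printed held 3 of the sham and 45 of the stroke fragments. It was also higher in stroke in myeloid-like nuclei, with 4 and 30 fragments and a ratio of 3.04 (1.07 to 11.9), and the OPC gate had 5 and 0. The window lies outside the gene and its upstream region, so it does not enter the Il6ra ratio given above.

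Around Stat3 the start stayed level, and the 2 of 10 open windows past 2-fold both lay upstream. The window at chr11:100947001-100947500, between genes and 7.71 kb upstream, held 10 and 36 fragments, a ratio of 2.81 (1.37 to 6.34). Its central 300 bases, printed with a STAT match, held 3 of the sham and 17 of the stroke fragments. A window in an intron of Cavin1, 23.2 kb upstream, held 8 and 31 fragments, a ratio of 3.02 (1.36 to 7.61), and one in an exon of Cavin1, 31.2 kb upstream, held 35 and 74, a ratio of 1.65 (1.09 to 2.54). The remaining one, in an exon of Cavin1 17.7 kb upstream, held 16 and 28, a ratio of 1.37 (0.713 to 2.70). Cavin1 itself, which holds 3 of these 4 windows, had a log2 ratio of 0.58 (0.25 to 0.92). The 4 open windows from 45.8 to 88.8 kb after the start had ratios of 0.721 to 0.888, each with an interval that includes 1. Only the window at 45.8 kb lies in Stat3, and those farther on lie past its end in exons of Stat5a or Stat5b. Fragments at the 7.71 kb window were at most 3 in any other gated class of either library.

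Of 8 open windows past the end of Socs3, all between genes, 5 were past 2-fold higher in stroke. The one 6.12 kb after the start held 13 and 43 fragments, a ratio of 2.58 (1.36 to 5.23). Farther on, the window at 38.6 kb held 6 and 33, a ratio of 4.29 (1.78 to 12.5), and the pair at 45.6 and 46.1 kb held 11 and 44, and 5 and 33. In between, the window at 29.1 kb held 21 and 20, a ratio of 0.743 (0.382 to 1.44), and the one at 29.6 kb held 39 and 51, a ratio of 1.02 (0.659 to 1.59), so open DNA of the same stretch was not uniformly higher. The 45.6 kb window had at most 2 fragments in any other gated class of either library.

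Distal windows of Lifr and Jak1 were higher although their starts were not. A window in an intron of Egflam, 16.0 kb past the end of Lifr, held 3 and 32 fragments, a ratio of 8.32 (2.60 to 42.5). For Jak1 a window 27.0 kb upstream, in an exon of the gene Gm12796, held 11 and 48, a ratio of 3.40 (1.74 to 7.27). Il6st and Jak2 had no window past 2-fold in either direction.

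**Figure D3:**
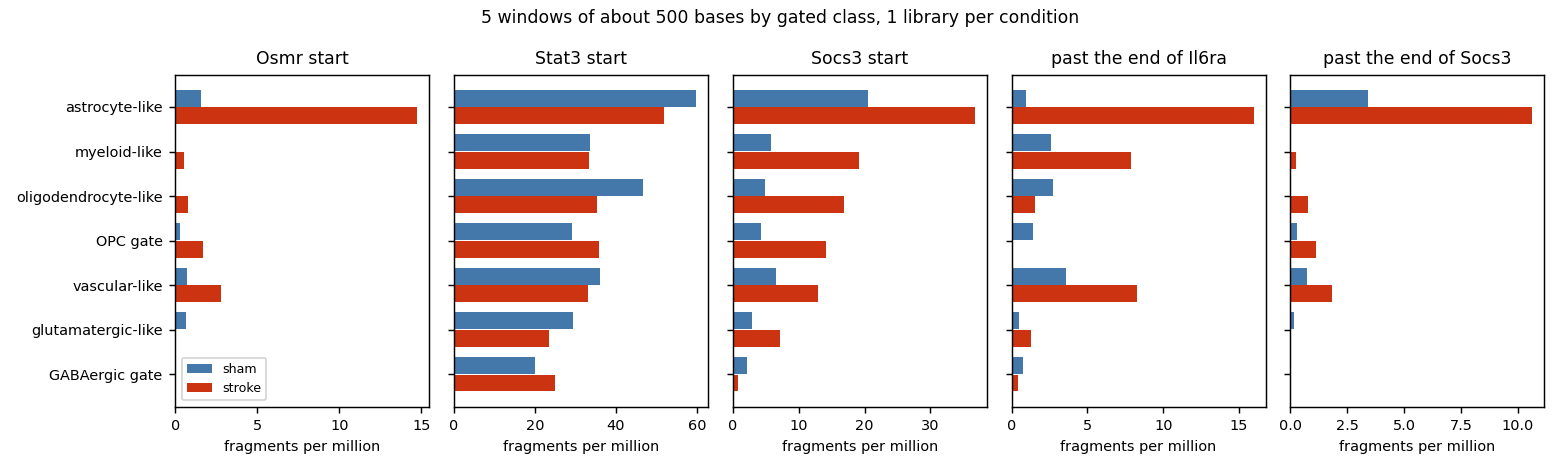
CPM in 5 windows of about 500 bases by gated class, for the sham (blue) and stroke (red) libraries, each panel with its own scale starting at 0 and no error bars. Stroke reaches 14.7 CPM at the Osmr start in astrocyte-like nuclei and at most 2.76 in the other gated classes, while the Stat3 start is open in all classes.

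Across the classes, Osmr and Socs3 were higher in stroke in more than astrocyte-like nuclei. Osmr rose from 10.1 to 32.2 CPM in vascular-like nuclei (14 and 35 fragments, log2 ratio 1.67, 0.74 to 2.68), from 8.65 to 30.7 CPM in the OPC gate (30 and 54 fragments, 1.83, 1.16 to 2.52) and from 3.24 to 15.2 CPM in myeloid-like nuclei (5 and 58 fragments, 2.23, 0.93 to 3.91). In oligodendrocyte-like nuclei it had 13.1 and 15.4 CPM, in glutamatergic-like nuclei 12.1 and 17.3 CPM, and in the GABAergic gate 6.91 and 4.41 CPM, and the intervals of these log2 ratios include 0. The second set of astrocyte markers, 5 genes with none at 0, summed to 178 CPM in sham and 243 in stroke vascular-like nuclei, 223 and 246 in the OPC gate, and 156 and 219 in myeloid-like nuclei, against 663 and 626 in astrocyte-like nuclei. The part of these astrocyte marker levels in the Osmr ratios of the other classes was not tested. In stroke the order of Osmr levels was astrocyte-like, vascular-like, OPC gate, glutamatergic-like, oligodendrocyte-like, myeloid-like and GABAergic gate, and among neighbours only the OPC gate and glutamatergic-like nuclei, and myeloid-like nuclei and the GABAergic gate, had intervals that do not overlap. In sham no neighbours in the order were apart.

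**Figure D4:**
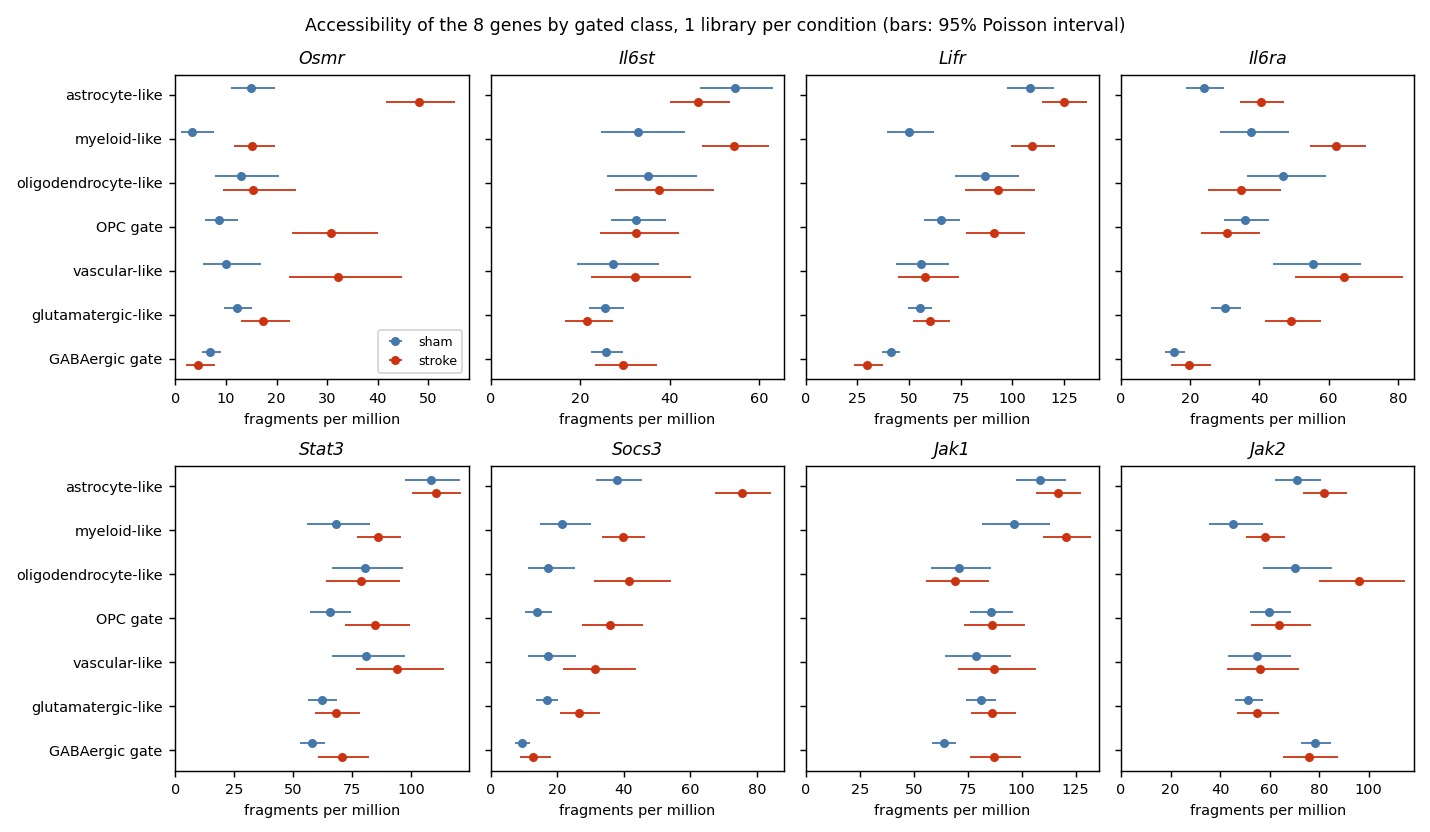
CPM over each gene body plus 2 kb upstream, by gated class, in the sham (blue) and stroke (red) libraries, with 95% Poisson intervals of counting error. Osmr in astrocyte-like nuclei lies at 14.9 in sham and 48.1 in stroke. The stroke value is above that of every other class of the stroke library, but its interval (41.6 to 55.3) overlaps that of vascular-like nuclei (22.4 to 44.8).

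Socs3 was higher in stroke in 6 of the 7 gated classes by its interval. Its log2 ratio was 1.37 (0.81 to 1.95) in the OPC gate, 1.27 (0.56 to 2.02) in oligodendrocyte-like nuclei, 0.89 (0.34 to 1.48) in myeloid-like nuclei, 0.85 (0.06 to 1.67) in vascular-like nuclei and 0.65 (0.22 to 1.08) in glutamatergic-like nuclei. In the GABAergic gate it was 0.45 (-0.19 to 1.07), with 76 and 32 fragments. The second set of astrocyte markers was also higher in stroke in each of these 6 classes, with the sums given above for 3 of them, 190 and 221 CPM in oligodendrocyte-like nuclei, 172 and 186 in glutamatergic-like nuclei and 148 and 177 in the GABAergic gate. In oligodendrocyte-like nuclei the class's own second set summed to 155 CPM in sham and 267 in stroke, and the part of these marker levels in the Socs3 ratios was not tested. Astrocyte-like nuclei had the highest Socs3 level in both libraries, apart from the next class by interval in each, which was myeloid-like in sham and oligodendrocyte-like in stroke with 41.5 CPM.

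The receptor genes differed between classes. Myeloid-like nuclei had log2 ratios of 1.13 (0.78 to 1.505) for Lifr, 0.73 (0.31 to 1.17) for Il6ra and 0.72 (0.27 to 1.19) for Il6st. In this class 7 of the 8 genes had an interval above 1, all but Jak2, against 15.4% of genes, and 2 were past 2-fold against 8.64%. The myeloid cells in this class can differ between the libraries, as said above, and the part of that in these counts was not tested. Il6ra had its highest level in vascular-like nuclei, with 55.6 CPM in sham and 64.4 in stroke, but in each library the interval overlapped that of the next class, oligodendrocyte-like with 46.8 CPM in sham and myeloid-like with 62.2 in stroke. It was also higher in stroke in glutamatergic-like nuclei, with 30.03 and 49.3 CPM and a log2 ratio of 0.71 (0.40 to 1.03). Lifr was lower in stroke in the GABAergic gate, with 41.1 and 29.7 CPM and a log2 ratio of -0.47 (-0.85 to -0.10). There 1 sham nucleus supplied 23 of the 333 sham fragments. The shares of nuclei with a fragment were 31.8% in sham and 26.5% in stroke. After thinning they were 8.27% (6.14 to 10.9) and 8.25% (4.79 to 13.0).

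Over the whole gene, Stat3, Jak1 and Jak2 stayed under 2-fold in every gated class. Stat3 was most open in astrocyte-like nuclei in both libraries, and in sham its 108 CPM lay above the 80.8 of vascular-like nuclei, the next class, by interval. The Stat3 log2 ratio was between -0.04 and 0.37 in all 7 classes, highest in the OPC gate (0.07 to 0.68). Jak1 reached 0.45 (0.21 to 0.68) in the GABAergic gate, and Jak2 reached 0.46 (0.07 to 0.85) in oligodendrocyte-like nuclei. Jak2 was the one gene whose highest sham level was in the GABAergic gate, with 78.5 CPM.

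In the remaining classes few of the 8 genes were past 2-fold higher. Oligodendrocyte-like nuclei had 1 such gene, Socs3, against 3.06% of genes, and 2 with an interval above 1, against 7.74%. The OPC gate had Osmr and Socs3 past 2-fold, against 2.36%, and 4 genes with an interval above 1, against 8.94%. Vascular-like nuclei had Osmr past 2-fold, against 4.24%, and 2 genes above 1, against 8.59%. Glutamatergic-like nuclei and the GABAergic gate had 0 past 2-fold, against 1.91% and 2.17%, and 2 genes each above 1, against 9.07% and 10.7%. In the GABAergic gate these were Stat3 and Jak1. Of the 176 Stat3 stroke fragments there, 26 came from 1 nucleus. The thinned Stat3 shares were 14.8% in sham and 12.9% in stroke, opposite in direction to its CPM. Lifr in the GABAergic gate was the single case of an interval below 1, against 12.1% of genes there. Nuclei that met no gate had 9.89 and 18.1 CPM over Osmr, a log2 ratio of 0.87 (0.70 to 1.05), and 0.42 (0.27 to 0.56) for Socs3.

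Summed over whole libraries, all 8 genes had an interval above 1, against 25.8% of 20979 genes, and 1 was past 2-fold, against 4.55%. Osmr went from 9.84 to 20.2 CPM, a log2 ratio of 1.04 (0.90 to 1.17), Socs3 from 16.3 to 27.9 CPM, 0.78 (0.66 to 0.89), and Il6ra from 29.1 to 39.1 CPM, 0.42 (0.33 to 0.51). The remaining genes lay between 0.14 for Jak2 and 0.28 for Jak1. In these sums a change in the share of a class and a change in accessibility per nucleus cannot be told apart. Without the filter on fragments in peaks, 5 of the 8 genes had an interval above 1.

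Of 9 cytokines that act through these receptors, 8 had at least 20 fragments in astrocyte-like nuclei, with a median log2 ratio of 0.39 against -0.05 for all genes, and 1 was past 2-fold higher against 3.23% of genes. This was Clcf1, a ligand of the ciliary neurotrophic factor receptor, with 43 and 163 fragments and a log2 ratio of 1.56 (1.07 to 2.08). Lif, leukemia inhibitory factor, was lowest at -0.27 (-0.55 to 0.02). Osm, the gene of oncostatin M itself, was named after its values were seen and had 4 and 12 fragments in astrocyte-like nuclei, 3 and 63 in myeloid-like nuclei, and at most 20 in any other gated class of either library. The myeloid-like counts are 1.94 and 16.5 CPM, a ratio of 8.51 (2.78 to 42.4), in the class whose second marker set was enriched less in sham than in stroke. Osm was not alone in this, since in myeloid-like nuclei 4 of 8 cytokines were past 2-fold, against 8.64% of genes, with ratios of 2.51 (0.969 to 8.28) for Il6, 2.37 (1.34 to 4.53) for Lif and 3.78 (1.17 to 19.4) for Il27. Of the 5 other receptors 2 were past 2-fold there, Lepr at 2.72 (1.22 to 7.14) and Il31ra, the partner of Osmr for interleukin-31, at 2.50 (1.51 to 4.37).

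Other parts of the pathway had no gene past 2-fold in astrocyte-like nuclei. Of the 5 other receptors, 8 other kinases and STATs and 15 other feedback inhibitors, 0 were past 2-fold in either direction, against 3.23% of all genes higher and 1.62% lower, so a count of 0 in lists this short says little. The median log2 ratios were 0.02, -0.20 and -0.16, against -0.05 for all genes. An interval below 1 was found for 1 receptor, 1 of the kinases and STATs and 4 of the 15 inhibitors, against 16.7% of genes, and an interval above 1 for 0, 0 and 2 of them, against 11.6%. Lepr, the leptin receptor, was highest of the receptors at 0.60 (18 and 35 fragments) and Il31ra lowest at -0.29. Among kinases and STATs Jak3 was highest at 0.47 and Stat5b lowest at -0.31 (-0.59 to -0.03). Among inhibitors Cish was highest at 0.34 and Socs7 lowest at -0.71 (-1.01 to -0.41), opposite in direction to its relative Socs3.

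The list of genes known as Stat3 targets was chosen with earlier results of these data known, so its counts are no independent evidence of a direction. Of 22, 21 had at least 20 fragments in astrocyte-like nuclei, 8 were past 2-fold higher against 3.23% of genes, 0 were past 2-fold lower against 1.62%, and 13 were past neither. The interval lay above 1 for 11 and below 1 for 2, against 11.6% and 16.7% of genes, and the median log2 ratio was 0.71. Bcl3, an NF-kappaB cofactor, was highest, with 26 and 400 fragments, 8.06 and 96.7 CPM, and a log2 ratio of 3.59 (3.01 to 4.22). Serpina3n, Vim and A2m, respectively a protease inhibitor gene, an intermediate filament gene and the alpha-2-macroglobulin gene, followed at 2.21, 2.20 and 2.05. Timp1 and Lcn2 were both at 1.83 with 7 and 32 fragments, Gfap was at 1.247 with 65.7 and 156 CPM, and Cebpd was at 1.07. Several of these are also known as reactive astrocyte genes, so the list is not specific to Stat3. Pim1 was lowest at -0.35 (-0.62 to -0.08).

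**Figure D5:**
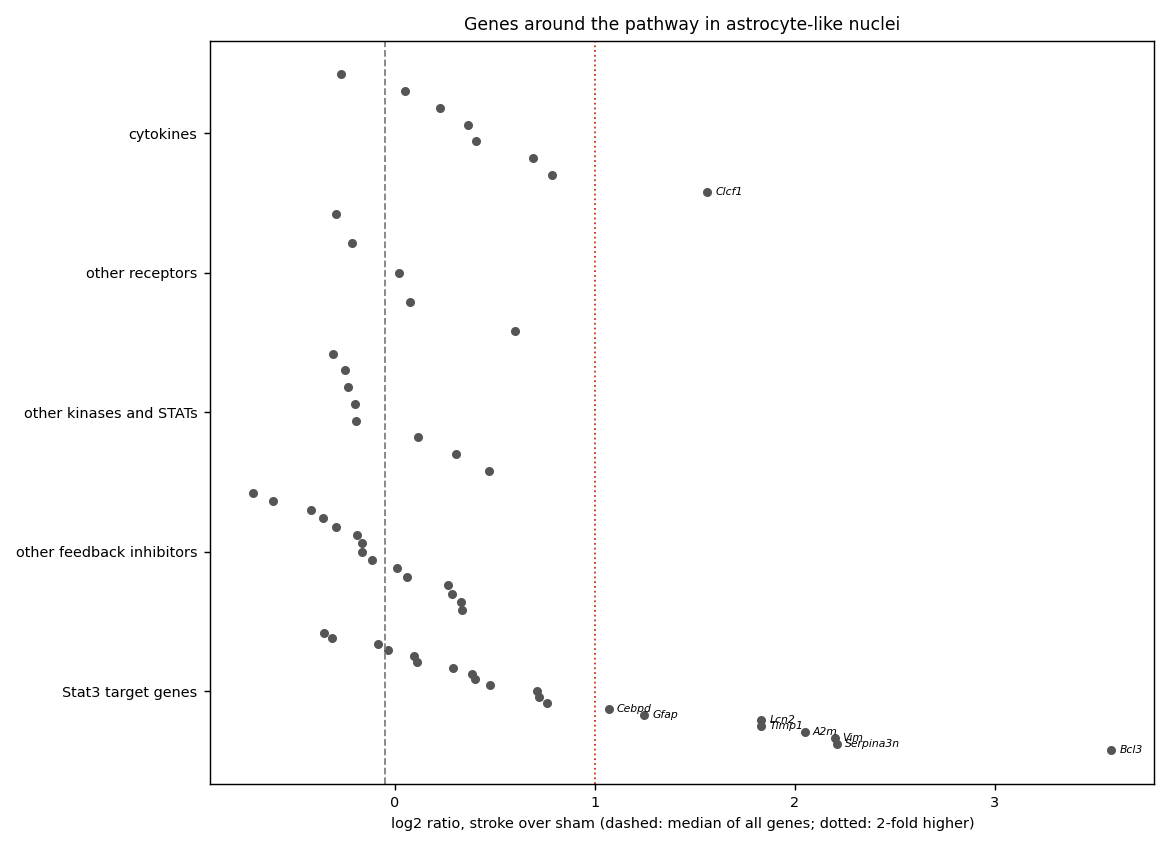
Log2 ratio of stroke to sham in astrocyte-like nuclei for genes with at least 20 fragments in 5 lists around the pathway, 1 point per gene, with names for those past 2-fold. The Stat3 target genes extend to 3.59 for Bcl3, while the other receptors, kinases and STATs, and inhibitors stay under the dotted line at 2-fold.

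Neighbouring genes served to ask whether the ratios covered whole loci. Osmr had 3 neighbours within 300 kb, and their log2 ratios in astrocyte-like nuclei lay between 0.21 and 0.45, against 1.69 for Osmr. The highest was Rictor, 13.2 kb away, at 0.45 (0.11 to 0.80), an interval above no difference. Fyb was at 0.31 (-0.12 to 0.74). The lowest, Lifr, is itself a member of the pathway examined here and so no independent neighbour. These few genes therefore say little about the Osmr locus as a whole. Of the 14 neighbours of Socs3 with at least 20 fragments, Pgs1, 16.2 kb away, was at 1.17 (0.83 to 1.53), above Socs3, and the median was 0.18. Around Il6ra 12 neighbours had a median of 0.03, and She, on the far side of the window past the end of Il6ra, was highest at 0.83 (-0.11 to 1.85). The 27 neighbours of Stat3 had a median of -0.06.

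Genes with the profile most like Osmr, by Pearson correlation of log2(CPM + 1) over 14 profiles of class and library, were Cyp7b1 (r = 0.88), Hus1 (0.88), Abcb11 (0.87), Relb (0.87) and Stxbp6 (0.86). For Socs3 they were Smim3 (0.93), Itga2 (0.92), Cdkn2c (0.92), Fggy (0.91) and Cebpd (0.91). For Stat3 they were Trpm6 (0.97), Id3 (0.95), Cdc42ep4 (0.95), Pdlim5 (0.94) and Nadk2 (0.94). Within the pathway Osmr was most like Socs3 (0.76) and least like Jak2 (0.23), and Stat3 was most like Socs3 (0.81). The 14 points share their library in groups of 7 and differ in depth, and 16049 genes were compared, so these values describe the profiles only.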

How the data were processed

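Per the labels and the study's methods, the authors aligned reads to mm10 with Cell Ranger ATAC 2.1.0 (a patched version for the sequencer used) and deposited a fragment list with Tn5-adjusted ends and a table of counts per barcode for each library. The read count per fragment was not used: each fragment counted as 1. Gene bodies came from GENCODE M21. Fragments overlapping a gene body plus 2 kb upstream were counted per nucleus and given in the counts-per-million unit (CPM), with every fragment of a class in a library as its total. Depth sets the precision: 3227779 fragments in sham and 4138000 in stroke astrocyte-like nuclei. Nuclei were gated with 141 marker genes by a Poisson log-likelihood, a class needing a margin of 5 over the pooled profile and over the next class. A second set of 33 markers assigned no nucleus, but several scorings (summed z, repeated and 1-step refinement, different margins) were tried with its enrichments in view, and the limit of 1.5-fold for a name was set after seeing them; the 8 genes took no part in the scoring. No doublet caller was run. Intervals are exact Poisson, exact conditional binomial for ratios and Clopper-Pearson for shares, at 95%. Windows of 500 bases counted fragments by midpoint; the window definition, its minimum and the choice of windows shown were set after the loci had been looked at. The AP-1 letters were narrowed from TGANTCA to TGAGTCA, and a misspelled C/EBP pattern was dropped, after first counts. A gene was called past 2-fold at a ratio of at least 2 with at least 20 fragments over both libraries. Named genes were the 8 members, the highest, lowest or 2-fold genes of each list, neighbours within 300 kb, and the 5 genes most alike among those with a mean of at least 5 CPM. Osm was named for its role, below 20 fragments in astrocyte-like nuclei, after its values were seen. The members and lists were chosen with earlier results of these data known. Scripts were tested on simulated data and run with Python 3.11.15 and scipy 1.17.1. Alternatives were other barcode filters, gene windows, scalings, gates, thinning, depth and Tn5 insertions, and, chosen after seeing the data, a limit of 2 fragments per nucleus and gene.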

Additional observations from a re-analysis of the deposited data

Results flagged for a closer look

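Lifr had log2 ratios of stroke to sham whose intervals lay on opposite sides of 0 in different classes: 0.21 in astrocyte-like nuclei, 1.13 in myeloid-like nuclei and 0.48 in the OPC gate, against -0.47 in the GABAergic gate. In the GABAergic gate 1 sham nucleus supplied 23 of the 333 sham Lifr fragments. Before thinning, 31.8% of sham and 26.5% of stroke nuclei of that gate held one. After thinning to 3000 fragments the shares were 8.27% (6.14 to 10.9) and 8.25% (4.79 to 13.0). The thinned shares do not show the lower level, and their intervals are too wide to speak against it. The difference between the classes was not tested, because each condition had 1 library. Chance was not assessed, and Lifr was the one gene of the 8 with such a pair of classes.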

How the results depend on the processing

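The ratios of Osmr, Il6ra, Socs3, Jak2 and Lifr in astrocyte-like nuclei kept their direction under every alternative that gave a value. Osmr had log2 ratios between 1.55 and 2.89, the highest with the region from 2 kb before to 500 bases after the annotated start, where Jak1 was -0.27 and so changed sign, as it also did with nuclei thinned to 3000 fragments. Lifr gave no value there, with 0 sham fragments at its GENCODE start. Socs3 lay between 0.79 and 1.26, so whether it passed 2-fold depended on the counting. Il6st lay between -0.29 and 0.04 and Stat3 between -0.14 and 0.21, each within its counting interval, so no direction is given for them. Scaling by promoter fragments moved the median of all genes from -0.05 to 0.08. The 8 genes with an interval above 1 over whole libraries were 5 with all called barcodes. The 542 genes past 2-fold higher in astrocyte-like nuclei became 838 with Tn5 insertions, 2075 with at least 1 fragment and 261 with at least 50. Depth limits Osmr most, with 48 sham fragments, and 1 pooled library per condition leaves the spread between animals unknown. No paired analysis was possible because there was a single library for sham and for stroke.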
